A study of Mus musculus with 6 samples.

Results

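The 8 genes described here encode the core of the phosphoinositide 3-kinase (PI3K), AKT and mTOR pathway: the PI3K subunits Pik3ca, Pik3cb and Pik3r1, the kinases Akt1 and Akt2, and Mtor, Rptor and Rictor of the mTOR complexes. They were chosen by symbol as the growth factor branch that runs parallel to ERK, and all 8 were found among the 24452 gene symbols of each file. RNA was taken from the small intestine of C57BL/6 mice at postnatal day 14, before weaning, and gave 3 libraries of the wild type label and 3 of the label Erk1/2 -/-. The labels name no Cre driver, no deleted exon and no pooling, and they leave unsaid whether every library is a mouse of its own. The p-values therefore reflect only how far these 6 libraries spread, which may be technical. The series title concerns negative feedback by ERK in the intestine after birth.

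PI3K phosphorylates a membrane lipid downstream of receptor tyrosine kinases, insulin receptor substrates and RAS. The lipid recruits AKT, which is then activated by PDK1 and by mTOR complex 2. AKT holds FOXO transcription factors out of the nucleus and, through TSC and RHEB, releases mTOR complex 1, which promotes protein synthesis. In the intestine the pathway is known for crypt cell growth and for the response to nutrients. It is controlled mainly by phosphorylation, which these transcript levels do not measure.

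The values were normalised counts, scaled per library and rounded by the authors, that summed to between 13641468 and 17153570 per library. Mapk3, which encodes ERK1, showed no loss in the labelled knockout, with 3142, 2788 and 2004 in wild type 1 to 3, against 3363, 2280 and 2734 in labelled knockout 1 to 3 (limma adjusted p = 0.819). The total of this gene thus goes against the genotype label, so each direction below refers to the libraries labelled knockout. Wild type 3 and labelled knockout 1 stood apart by a score of intestinal segment genes. Their proximal minus ileal scores were -0.82 and 0.32 on the log2 scale, whereas the other libraries scored between 4.20 and 6.06. The 8 proximal genes did not move as one. Gata4, Onecut2, Cybrd1 and Slc40a1 were lowest in labelled knockout 1, and Ces1f and Adh6a in wild type 3. Fabp1 and Rbp2 were instead highest in labelled knockout 1 (65603 and 102049). The ileal gene Fabp6, which is not in the score, was at 1947 in labelled knockout 1 and at 4 in wild type 3. The Y-linked gene Ddx3y exceeded Xist in wild type 1, wild type 2 and labelled knockout 1, so sex was unequally spread over the groups. As to the tissue label, the summed level of 11 epithelial markers was 132192 to 134647 in wild type and 142888 to 184959 in labelled knockout, with none at 0. Of these markers limma called Krt20 and Phgr1 higher (log2 fold changes 1.94 and 2.80) and Lct lower (-1.225). That is 27.3% of the list, against 8.79% of all genes tested. Of 7 enteric nerve markers limma called 0, with 2 at an unadjusted p under 0.05, against 30.3% of all genes tested. Their sum was 1416 to 2483 in wild type and 1896 to 3187 in labelled knockout. Pancreas was present unevenly: a list of 9 pancreas and adipose markers summed to 14702 in wild type 1, 687 in wild type 2 and 1459 in labelled knockout 2, and to between 0 and 8 in the other 3 libraries. Most of the sum in wild type 1 came from Cela2a (8766), Cpa1 (3088) and Prss2 (2662), enzymes of the exocrine pancreas, while the adipocyte genes Adipoq and Lep were at 0 in every library. The part of pancreatic RNA in the results was not tested, and the values without wild type 1 are given below.

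The sequences upstream of the members are shown for the 3 promoter windows that held a core motif of a factor tied to these pathways. RefSeq gave 13 start sites for the 8 genes on GRCm38.p6, the assembly that mm10 names, and the 250 bases before each were searched on both strands. The ETS core CCGGAAGT, bound by factors that ERK phosphorylates, was found before Pik3ca and Mtor, and in 2.88% of all 32851 windows. The FOXO core GTAAACA, bound by the factors that AKT restrains, was found before the upstream start of Akt1, and in 3.17% of all windows. No window of the members held both. Capitals mark the match, in the reading of the gene's own strand, so that ACTTCCGG and TGTTTAC are matches on the opposite strand. A match describes the letters and is not evidence of binding.
Pik3ca, chr3:32396815-32397064, plus strand: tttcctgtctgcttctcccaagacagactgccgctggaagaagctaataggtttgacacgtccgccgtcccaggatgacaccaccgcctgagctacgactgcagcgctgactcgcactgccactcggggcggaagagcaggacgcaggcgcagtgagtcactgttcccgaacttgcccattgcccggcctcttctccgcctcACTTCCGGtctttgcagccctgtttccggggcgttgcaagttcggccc
Mtor, chr4:148448332-148448581, plus strand: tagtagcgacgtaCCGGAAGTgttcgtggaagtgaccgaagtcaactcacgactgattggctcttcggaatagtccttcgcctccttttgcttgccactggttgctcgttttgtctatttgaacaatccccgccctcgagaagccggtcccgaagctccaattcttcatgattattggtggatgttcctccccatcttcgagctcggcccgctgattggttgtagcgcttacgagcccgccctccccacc
Akt1, chr12:112674885-112675134, minus strand: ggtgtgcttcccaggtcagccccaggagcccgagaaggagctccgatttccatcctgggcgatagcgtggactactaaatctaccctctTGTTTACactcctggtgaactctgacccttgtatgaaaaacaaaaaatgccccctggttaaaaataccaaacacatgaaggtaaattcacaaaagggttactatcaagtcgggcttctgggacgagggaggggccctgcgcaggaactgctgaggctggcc

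No member passed the test between the genotypes. In a limma fit over 14686 genes, 0 of 8 had an adjusted p under 0.05, whereas 8.79% of all genes tested did. At an unadjusted p under 0.05 there was 1 member, Pik3ca, against 30.3% of all genes. With sample quality weights, whose estimation stopped before it converged, Akt2, Pik3ca, Pik3cb and Mtor were called, where 62.1% of all genes were. The weights of labelled knockout 1 to 3 were 0.108, 0.385 and 21.4, so the third library dominated its group. The members' log2 fold changes ran from -0.55 to 0.41 with a median of -0.04, beside -0.01 for all genes, and 4 were positive and 4 negative. Their median absolute log2 fold change was 0.15, compared with 0.36 over all genes tested. The genotypes did not overlap for 2 members, Pik3ca and Pik3cb, and did not overlap for 37.6% of all genes.

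**Figure D1:**
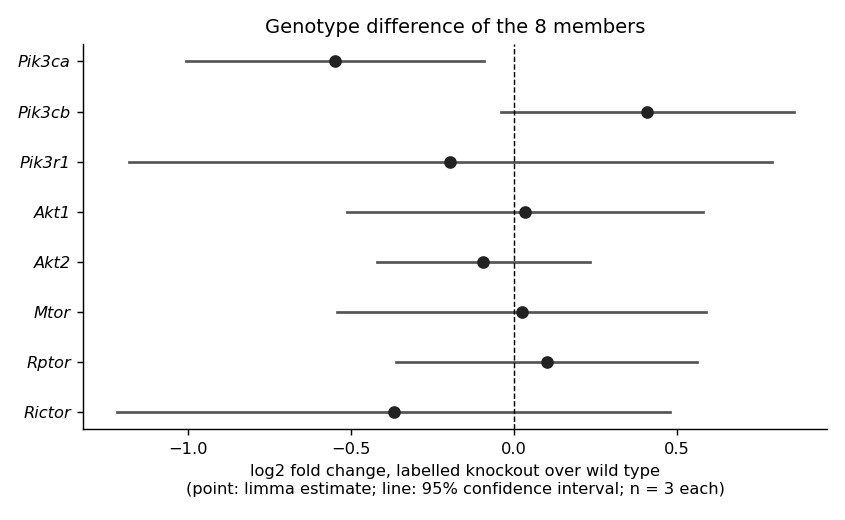
Log2 fold change of each member, labelled knockout over wild type, with its 95% confidence interval (limma, n = 3 libraries each). The interval of Pik3ca lies below 0, that of Pik3cb reaches from -0.04 to 0.86, and those of the other 6 members span 0.

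The members covered a wide range of levels, compared here as normalised counts per kb of exon so that long and short genes can be set side by side. Akt1 was the most abundant in every library, with a mean of 1090 ± 227 per kb (SD, n = 6 libraries) and a range that did not overlap that of any other member. Akt2 followed at 180 ± 15.3 per kb and Pik3r1 at 132 ± 46.7. Below them came Mtor at 93.3 ± 18.3, Rptor at 62.7 ± 9.96 and Pik3ca at 48.0 ± 11.4 per kb. Pik3cb and Rictor were lowest, at 24.5 ± 5.14 and 23.2 ± 6.47 per kb, and each was above the other in 3 of 6 libraries. From Akt2 downward the ranges of neighbours in this order overlapped over the 6 libraries, although Pik3r1 was above Mtor, Mtor above Rptor and Pik3ca above Pik3cb in all 6. Akt2 varied least among libraries, with 1.23 times as much in the highest as in the lowest, and Pik3r1 and Rictor varied most, at 2.75 and 2.65 times.

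**Figure D2:**
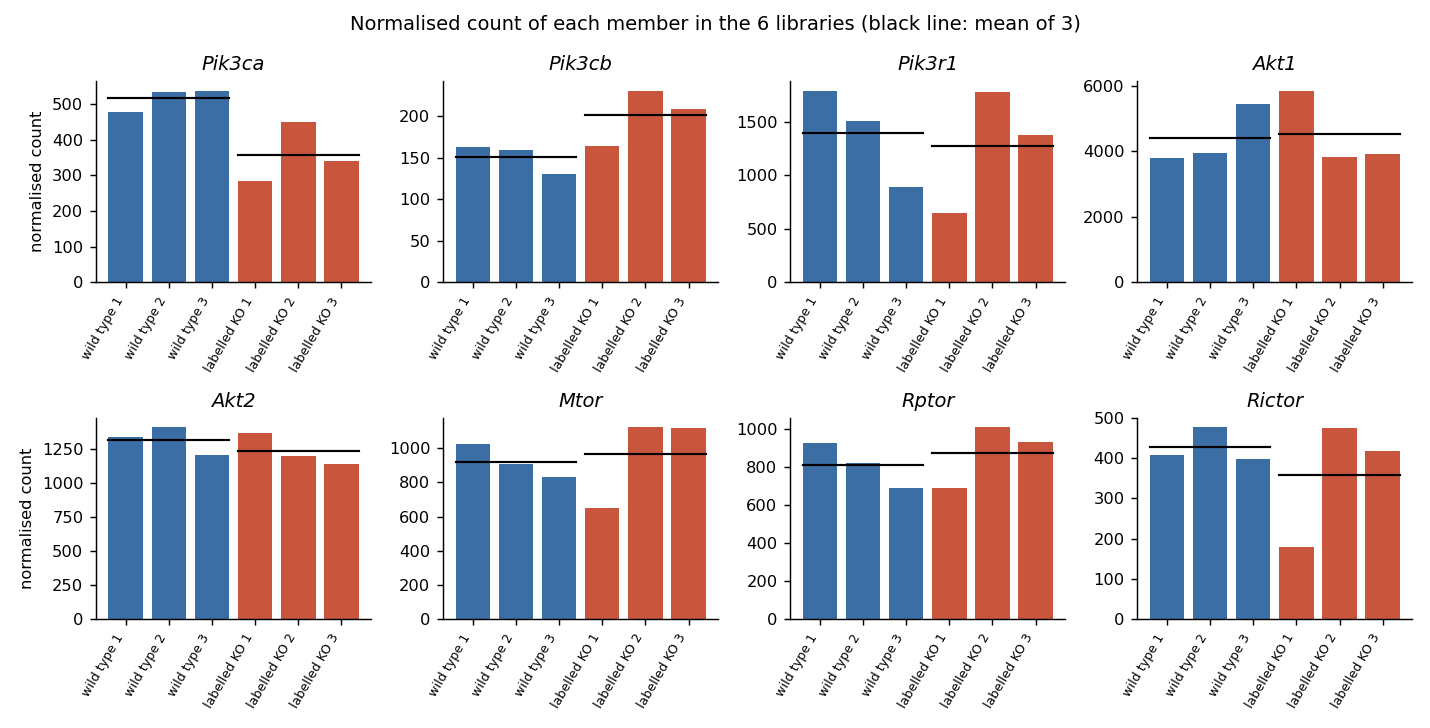
Normalised count of each member in the 3 wild type (blue) and 3 labelled knockout (red) libraries, with the mean of each group as a black line. Labelled knockout 1 is the lowest library for Pik3ca, Pik3r1, Mtor, Rptor and Rictor, and wild type 3 and labelled knockout 1 are the highest for Akt1.

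Pik3ca encodes p110 alpha, the catalytic subunit that most growth factor receptors and RAS engage (chromosome 3, 32397671 to 32468486, plus strand, GRCm38). Its normalised counts were 477, 532 and 537 in wild type 1 to 3, against 284, 450 and 339 in labelled knockout 1 to 3. Every labelled knockout library was below every wild type library. The group means (± SD, n = 3) were 515 ± 33.3 in wild type and 358 ± 84.6 in labelled knockout. The log2 fold change was -0.55 ± 0.19 (SE), at a limma adjusted p of 0.113. Its 95% confidence interval ran from 0.498-fold to 0.937-fold. The adjusted p passed the threshold, at 0.0488, with the segment score as a covariate, where the log2 fold change was -0.60 and 27.4% of all genes were called.

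Pik3cb encodes p110 beta, the catalytic subunit that also answers to G protein-coupled receptors (chromosome 9, 99036654 to 99140621, minus strand). It had 163, 159 and 130 in wild type 1 to 3, against 164, 231 and 209 in labelled knockout 1 to 3. The groups were separated by a single normalised count, between wild type 1 and labelled knockout 1. The group means were 151 ± 18.0 and 201 ± 34.2, and the log2 fold change was 0.41 ± 0.19 at a limma adjusted p of 0.196.

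Since p110 alpha and p110 beta compete for the same regulatory subunits, their transcripts were also compared as a ratio within each library, which no scaling can change. The log2 ratio of Pik3cb to Pik3ca was -1.54, -1.74 and -2.04 in wild type 1 to 3, against -0.79, -0.96 and -0.70 in labelled knockout 1 to 3. The genotypes did not overlap. This was fixed beforehand, since every labelled knockout library was below every wild type library for Pik3ca and above for Pik3cb. The ratio was below 0 in all 6 libraries. The mean ratio was 0.96 higher on the log2 scale in labelled knockout, or 1.94-fold. The exact permutation test (two-sided) gave p = 0.1, the smallest that 3 against 3 libraries allow, and 0.3 after Benjamini-Hochberg adjustment over the 3 ratios computed. With both genes apart in opposite directions the unadjusted p could take no other value, so it adds nothing to the values of the single genes. Wild type 3, the library with the lowest segment score, had the lowest ratio, while labelled knockout 1, with the next lowest score, lay between the other labelled knockout libraries.

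**Figure D3:**
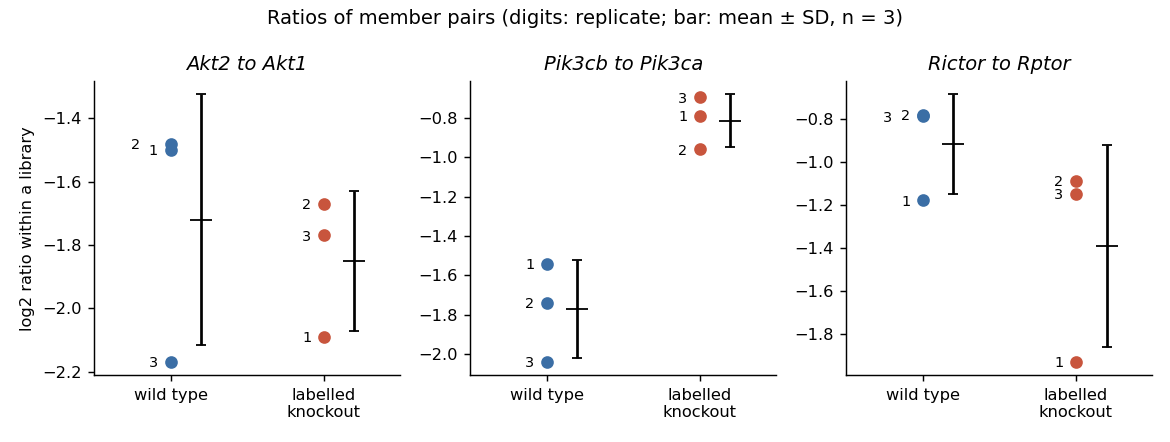
Log2 ratio of the normalised counts of 2 members within each library, with group mean ± SD (n = 3) and replicate numbers beside the points; each panel has its own axis. The Pik3cb to Pik3ca ratios lie between -2.04 and -1.54 in wild type and between -0.96 and -0.70 in labelled knockout, whereas the Akt2 to Akt1 ratios overlap.

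Pik3r1 encodes p85 alpha, the regulatory subunit that stabilises p110 and brings it to phosphorylated receptors (chromosome 13, 101680563 to 101768217, minus strand). Its normalised counts were 1794, 1507 and 891 in wild type 1 to 3, against 653, 1784 and 1377 in labelled knockout 1 to 3. The lowest values were those of wild type 3 and labelled knockout 1, so the spread within each genotype was larger than the difference between them. The means were 1397 ± 461 and 1271 ± 573, and the log2 fold change was -0.20 ± 0.42 (limma adjusted p = 0.776). Its sign was positive without labelled knockout 1, at 0.23, and without wild type 1, at 0.01. With the segment score as a covariate it was -0.46 with a limma adjusted p of 0.057.

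Akt1 encodes the most widely expressed AKT kinase, which drives growth and survival (chromosome 12, 112653821 to 112674884, minus strand). It had 3792, 3954 and 5459 in wild type 1 to 3, against 5854, 3825 and 3917 in labelled knockout 1 to 3. Wild type 3 and labelled knockout 1 were high and the other 4 libraries, of both genotypes, lay within 3792 to 3954. The means were 4402 ± 919 and 4532 ± 1146, which is 0.03 ± 0.23 as a log2 fold change (limma adjusted p = 0.934) whose 95% confidence interval ran from 0.702-fold to 1.49-fold. Without wild type 3 and labelled knockout 1 the log2 fold change was -0.000531.

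Akt2 encodes the AKT kinase best known for insulin-stimulated glucose uptake (chromosome 7, 27591552 to 27640826, plus strand). Its normalised counts were 1343, 1413 and 1209 in wild type 1 to 3, against 1371, 1201 and 1145 in labelled knockout 1 to 3. The groups overlapped and the highest and lowest libraries were close. The log2 fold change was -0.09 ± 0.14 (limma adjusted p = 0.673), with a 95% confidence interval from 0.747-fold to 1.17-fold, the narrowest of the 8. The log2 ratio of Akt2 to Akt1 was -1.50, -1.48 and -2.17 in wild type and -2.09, -1.67 and -1.77 in labelled knockout, a difference of -0.13 (exact permutation p = 0.6).

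Mtor encodes the kinase that both mTOR complexes share (chromosome 4, 148448611 to 148557683, plus strand). It had 1028, 909 and 831 in wild type 1 to 3, against 649, 1123 and 1120 in labelled knockout 1 to 3. Labelled knockout 1 was the lowest of the 6 and the other labelled knockout libraries the highest. The means were 923 ± 99.2 and 964 ± 273, which is 0.02 ± 0.24 as a log2 fold change (limma adjusted p = 0.953). It was 0.29 without labelled knockout 1 and -0.11 without labelled knockout 2 or labelled knockout 3, and at neither was it called.

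Rptor encodes RAPTOR, which presents substrates to mTOR complex 1 (chromosome 11, 119602905 to 119899576, plus strand). The counts were 926, 821 and 690 in wild type 1 to 3, against 688, 1009 and 931 in labelled knockout 1 to 3. Wild type 3 and labelled knockout 1 were the low libraries and differed by 2 normalised counts. The log2 fold change was 0.10 ± 0.19 (limma adjusted p = 0.754). Exons of an antisense transcript, Rptoros, cover 0.624% of those of Rptor, and no other member shared exon sequence with another annotated gene.

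Rictor encodes the defining subunit of mTOR complex 2, which phosphorylates AKT (chromosome 15, 6708379 to 6800401, plus strand). Its normalised counts were 407, 477 and 399 in wild type 1 to 3, against 180, 475 and 419 in labelled knockout 1 to 3. Labelled knockout 1 alone was low, and the other 5 libraries lay within 399 to 477. The log2 fold change was -0.37 ± 0.36 (limma adjusted p = 0.517), and 0.07 without labelled knockout 1. The log2 ratio of Rictor to Rptor was -1.18, -0.78 and -0.79 in wild type and -1.93, -1.09 and -1.15 in labelled knockout, a difference of -0.47 (exact permutation p = 0.3). Without labelled knockout 1 the difference was -0.20.

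The 5 members that were lowest in labelled knockout 1 were the 5 with the longest exons, 9088 bases in Pik3ca to 16930 in Rictor. Gene length moved with the values of that library over the whole transcriptome. Among 2457 genes tested with at least 8 kb of exon, the median log2 deviation from the mean of its own genotype was -0.34 in labelled knockout 1, 0.26 in labelled knockout 2 and 0.10 in labelled knockout 3. Among 1991 genes under 2 kb the medians were 0.34, -0.22 and -0.12. In wild type the medians stayed within -0.06 and 0.05 for both classes. The deviations of the long members in labelled knockout 1 were -0.31 for Pik3ca, -0.33 for Rptor, -0.53 for Mtor, -0.84 for Pik3r1 and -0.87 for Rictor, so the first pair was near the median of long genes and the other 3 were below it. Akt1, the shortest member at 4098 bases, deviated by 0.40 there and by 0.33 in wild type 3. The part of gene length in these values was not tested.

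**Figure D4:**
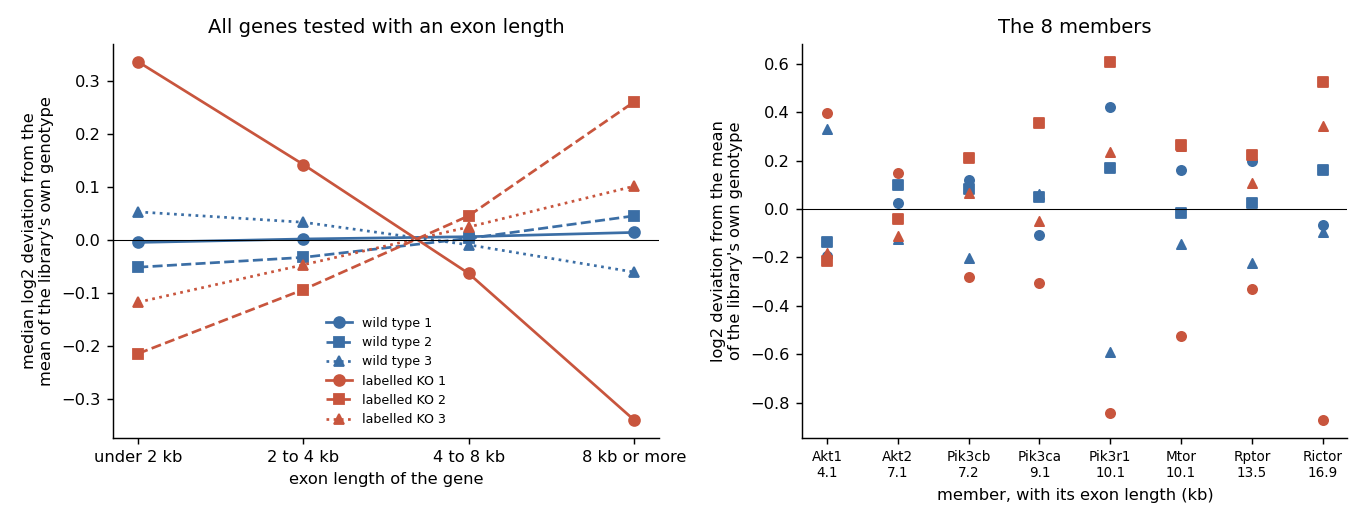
Left, the median log2 deviation of each library from the mean of its own genotype for genes grouped by exon length; right, the same deviation of each member, ordered by exon length. Labelled knockout 1 runs from 0.34 for genes under 2 kb to -0.34 for those of 8 kb or more, and its 5 lowest members are the 5 longest.

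Around these 8 genes, 138 other symbols of the pathway, some of them a pair of names for 1 gene, were listed by role. The files held 134 and 130 were tested. Of these 16 fell and 3 rose, or 12.3% and 2.31%, where 3.94% and 4.85% of all genes tested did, and their median log2 fold change was -0.18. Since the lists were chosen with earlier results of these data known, these shares are a description and not a test. Exon length moved with the genotype fold change as well: over all genes tested the median ran from 0.24 under 2 kb through 0.09 and -0.06 to -0.23 at 8 kb or more. The pathway genes in the same classes, 10, 30, 57 and 31 in number, had medians of 0.27, -0.12, -0.23 and -0.22, and the part of length in their counts was not tested. Most of the genes that fell encode adaptors, proteins of the amino acid sensor list, immune cell PI3K subunits and FOXO targets. Those that rose were Eif4ebp1, Eif4a1 and Sec13. The limma calls moved with the libraries used. Leaving out wild type 1 or wild type 2 gave 0 calls, where 0.541% and 0.395% of all genes were called. Leaving out wild type 3 gave 4, or 3.1%, against 2.67%. Of the labelled knockout libraries, omitting the first gave 41 calls, or 31.5%, against 20.6% of all genes. Omitting the second gave 8, or 6.15%, against 4.26%, and omitting the third gave 0, against 0.192%. At an unadjusted p under 0.05 there were 42 of the 130 pathway genes with all libraries, and 30.3% of all genes tested. With 1 library omitted there were 29, 26, 35, 56, 40 and 32, in the order of the libraries omitted. The shares of all genes in those fits were not computed. Of the 19 genes, 0, 0, 2, 19, 7 and 0 stayed called. There were 43 calls, or 33.1%, without both wild type 3 and labelled knockout 1, where 25.9% of all genes were called. With sample quality weights there were 88, or 67.7% against 62.1% of all genes. With the segment score as a covariate 37 were called, all 19 among them, which is 28.5% against 27.4% of all genes. With sex as a covariate 3 of the 19 stayed called (Foxo4, Gatsl2 and Pck1) and no other pathway gene was, or 2.31% against 3.13% of all genes.

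**Figure D5:**
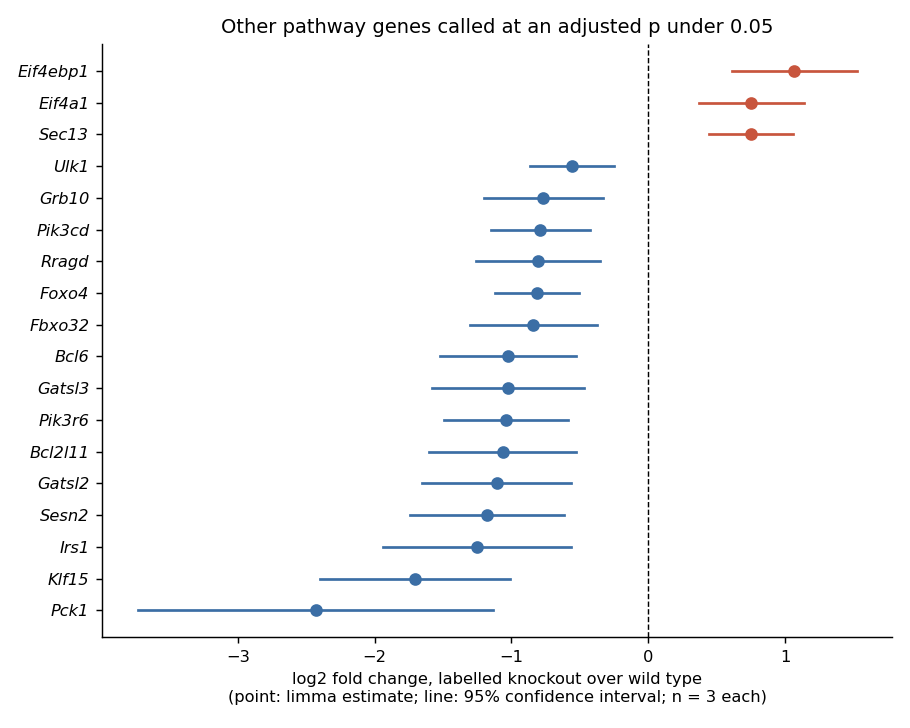
Log2 fold change of 18 of the 19 other pathway genes called at a limma adjusted p under 0.05, labelled knockout over wild type, with 95% confidence intervals (n = 3 libraries each); 15 are lower and 3 higher. Irs1, Klf15 and Pck1 have the lowest estimates and Eif4ebp1 the highest.

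Of 6 receptor adaptors, 2 fell (33.3%) and none rose, where 3.94% of all genes tested fell and 4.85% rose. Irs1, which links the insulin and IGF receptors to PI3K, had 149, 122 and 146 in wild type 1 to 3, against 40, 86 and 55 in labelled knockout 1 to 3, which is -1.25 ± 0.29 as a log2 fold change (limma adjusted p = 0.0459). Its paralog Irs2 had 1329, 1295 and 923 in wild type and 245, 942 and 524 in labelled knockout and did not pass, at -1.24 ± 0.46 (limma adjusted p = 0.126). All wild type libraries exceeded all labelled knockout libraries for Irs1, whereas for Irs2 wild type 3 was below labelled knockout 2. Over all genes tested, the genotypes did not overlap for 37.6%. Grb10, an adaptor that restrains insulin signalling and is stabilised by mTOR complex 1, changed by -0.77 ± 0.18. Gab1, a docking protein of receptor tyrosine kinases, had a log2 fold change of -0.26 and was not called.

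Among the other 8 class I PI3K genes, 2 fell (25.0%, against 3.94% of all genes tested), both known from leukocytes. Pik3cd, encoding p110 delta, had 379, 445 and 367 in wild type 1 to 3, against 204, 238 and 246 in labelled knockout 1 to 3, a log2 fold change of -0.79 ± 0.15. Pik3r6, a regulatory subunit of p110 gamma, changed by -1.04 ± 0.19. Of 11 leukocyte markers, 3 fell (27.3%, against 3.94% of all genes tested), none rose and 8 were not called. Those that fell include the pan-leukocyte gene Ptprc (-1.32 ± 0.18) and the B cell gene Cd79a (-2.82 ± 0.32). The list did not move as one, since the log2 fold changes of the myeloid gene Lyz2 and the T cell genes Cd3e and Cd3g were 0.40, 0.27 and 0.11. Lyz2 was higher in every labelled knockout library than in any of wild type, and the genotypes did not overlap for 37.6% of all genes tested. The summed level of the 11 was 5522 to 7795 in wild type and 3440 to 8090 in labelled knockout, and no marker was at 0 in any library. In whole tissue, fewer cells of a type and less RNA per cell cannot be told apart. Pik3r2, the second p85 subunit, averaged 2311 ± 274 and 2574 ± 767 and was not called (0.12 ± 0.23), and neither was Pik3ip1, an inhibitor of p110 (-0.71 ± 0.17, limma adjusted p = 0.0519).

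In the list of AKT activation and dephosphorylation, 1 of 8 genes tested fell (12.5%, against 3.94% of all genes) and none rose. The other 7 were not called, among them Ppp2ca (0.22 ± 0.16), a phosphatase catalytic subunit that acts on AKT, and Phlpp2 (0.11 ± 0.25), which dephosphorylates AKT. Among markers of endothelium, Pecam1 fell by 0.74 on the log2 scale, Cdh5 by 0.78 and Kdr by 0.81. In the fibroblast and endothelium list of 8 markers, 3 fell (37.5%, against 3.94% of all genes tested) and none rose. The other 5 were not called, with log2 fold changes of -0.83 (Tek), -0.20 (Col1a2), -0.05 (Pdgfra), -0.03 (Col1a1) and 0.37 (Dcn). None was at 0, and the sum of the 8 was 26069 to 37114 in wild type and 21994 to 29559 in labelled knockout. The part of these cells in the pathway genes that fell was not tested.

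No lipid phosphatase was called by limma among 7, and 2 had an unadjusted p under 0.05, against 30.3% of all genes. Inppl1, encoding the phosphatase SHIP2, had a log2 fold change of 0.02 ± 0.17. The 4 class II and III PI3K genes tested gave 0 calls by limma and 0 at an unadjusted p under 0.05, with log2 fold changes from -0.20 to -0.04. Pik3c2a, which acts in endocytosis, had -0.20 ± 0.31, and Pik3c2b had -0.04 ± 0.39.

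Between AKT and mTOR complex 1, the TSC and RHEB list of 6 had no limma call. It had 1 gene with an unadjusted p under 0.05, against 30.3% of all genes tested. Tsc2, the GTPase-activating protein for RHEB, averaged 1113 ± 113 and 1006 ± 1.73 (-0.14 ± 0.13), and the stress-induced inhibitor Ddit4 had 2217 ± 444 and 3682 ± 964 (0.72 ± 0.25, limma adjusted p = 0.107). The 9 other subunits and assembly factors of the mTOR complexes gave no limma call and 1 unadjusted p under 0.05. Prr5, a subunit of mTOR complex 2, had 1148, 1356 and 1859 in wild type 1 to 3, against 1843, 769 and 727 in labelled knockout 1 to 3. Like Akt1, it was highest in wild type 3 and labelled knockout 1. Akt1s1, the inhibitory subunit PRAS40 of mTOR complex 1, had 0.22 ± 0.22.

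GATOR complexes and their sensors report amino acids to mTOR complex 1. In the list of 13 GATOR subunits and sensors tested, 3 fell (23.1%) and 1 rose (7.69%), where 3.94% and 4.85% of all genes did. Gatsl2 and Gatsl3, the older symbols of Castor2 and of the arginine sensor Castor1, changed by -1.11 ± 0.23 and -1.02 ± 0.23. Gatsl2 had 780, 924 and 929 in wild type 1 to 3, against 300, 544 and 408 in labelled knockout 1 to 3. Gatsl3 had 102, 113 and 120 against 74, 47 and 46. Both had all labelled knockout libraries below all wild type libraries, and the genotypes did not overlap, in either direction, for 37.6% of all genes tested. Sesn2, the leucine sensor, fell as well, from a mean of 657 ± 72.5 to 298 ± 97.1. Sec13, which serves the GATOR2 complex as well as COPII vesicles and the nuclear pore, rose by 0.75 ± 0.13 on the log2 scale, from 3311 ± 131 to 5583 ± 405. The uncalled genes of this list with the highest normalised counts were Wdr24 (-0.05 ± 0.19) and Sesn1 (-0.17 ± 0.15).

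At the lysosome, where RAG GTPases recruit mTOR complex 1, 1 of 13 genes fell (7.69%, against 3.94% of all genes) and none rose. Rragd, encoding RAGD, had 1485, 1704 and 1947 in wild type 1 to 3, against 818, 1214 and 930 in labelled knockout 1 to 3, which is -0.80 ± 0.19 as a log2 fold change (limma adjusted p = 0.0479). The groups did not overlap, as was so for 37.6% of all genes tested. Flcn, encoding folliculin, which acts on RAGC and RAGD, had 1813, 1939 and 2352 against 2029, 1138 and 961 and was not called (-0.63 ± 0.29). Lamtor2, a subunit of the Ragulator scaffold, had 0.29 ± 0.26.

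Among 11 mTOR complex 1 substrates, 1 rose and 1 fell (9.09% each), where 4.85% and 3.94% of all genes tested did. Eif4ebp1, encoding the translation repressor 4E-BP1, had 558, 536 and 681 in wild type 1 to 3, against 1557, 1037 and 1166 in labelled knockout 1 to 3. It rose by 1.07 ± 0.19 on the log2 scale, or 2.1-fold (limma adjusted p = 0.0259). Ulk1, the kinase that starts autophagy, changed by -0.56 ± 0.13, from 1209 ± 107 to 820 ± 31.4. Larp1 (0.25 ± 0.20) and Maf1 (-0.12 ± 0.17), which act on ribosomal protein mRNAs and on RNA polymerase III, were not called. Of the 9 translation genes below, 1 rose (11.1%, against 4.85% of all genes tested) and none fell. Eif4a1, the helicase of the cap-binding complex, rose by 0.76 ± 0.16, while Eef2 (0.44 ± 0.18) and Eif4g1 (0.10 ± 0.14) were not called.

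On the side of mTOR complex 2, none of 7 substrates was called by limma. At an unadjusted p under 0.05 there was 1, against 30.3% of all genes tested. Sgk1, a kinase related to AKT that promotes sodium uptake, ranged from 849 in labelled knockout 3 to 5011 in labelled knockout 1 and had a log2 fold change of -0.23 ± 0.62. Prkcd, encoding protein kinase C delta, had 0.20 ± 0.15. Of 13 AKT substrates, 1 fell (7.69%, against 3.94% of all genes tested). Foxo4 had 1005, 1071 and 990 in wild type 1 to 3, against 600, 618 and 527 in labelled knockout 1 to 3, which is -0.81 ± 0.13 as a log2 fold change (limma adjusted p = 0.0201). Gsk3a, a kinase that AKT inhibits, had 0.50 ± 0.21 and Tbc1d1, a RAB GTPase-activating protein, -0.56 ± 0.27, and neither was called.

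The target genes of FOXO factors had a median log2 fold change of -0.85 over 16 tested, the lowest of the 14 lists, with 15 of 16 log2 fold changes negative. Limma called 5 lower (31.2%) and none higher, where 3.94% of all genes were called lower and 4.85% higher. The lists were chosen with earlier results of these data known, so the rank is a description and not a test. Klf15, a transcription factor of fasting metabolism, had 81, 63 and 45 in wild type 1 to 3, against 15, 22 and 18 in labelled knockout 1 to 3 (-1.70 ± 0.29). Bcl2l11, the pro-apoptotic gene BIM, had 589, 636 and 366 against 241, 266 and 233 (-1.06 ± 0.23). Bcl6, a repressor that also marks germinal centre B cells, had 366, 451 and 321 against 209, 207 and 145 (-1.02 ± 0.21). Pck1, the gluconeogenic enzyme, changed by -2.43 ± 0.55, and the fifth gene called was Fbxo32, a ubiquitin ligase of muscle wasting (-0.84 ± 0.20). The uncalled genes with the highest normalised counts were Txnip (-0.12 ± 0.17) and Pdk4 (-1.13 ± 0.57). Wild type 3, with its low segment score, was the lowest of its group for Klf15, Bcl6, Bcl2l11, Pdk4 and Pck1 but the highest for Fbxo32 (429). Labelled knockout 1, the other library with a low score, was the highest of its group for Bcl6 and Pck1 (209 and 11962). With the segment score as a covariate all 5 stayed called, where 27.4% of all genes were called. The log2 fold changes were then -1.83 for Klf15, -1.16 for Bcl2l11, -1.02 for Bcl6, -2.36 for Pck1 and -0.78 for Fbxo32. With sex as a covariate only Pck1 stayed called (limma adjusted p = 0.0374), where 3.13% of all genes were called. The others had limma adjusted p from 0.0546 (Klf15) to 0.0773 (Fbxo32). None of the 5 stayed called without wild type 1, wild type 2 or labelled knockout 3, where 0.541%, 0.395% and 0.192% of all genes were called. Beside Fbxo32, smooth muscle markers had 0 of 8 called by limma and 3 with an unadjusted p under 0.05, against 30.3% of all genes. None was at 0, and their sums were 46864 to 62986 in wild type and 33124 to 47935 in labelled knockout. The part of cell type in these values was not tested.

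The genes most like each member over the 6 libraries were found by the root mean square difference of their centred log2 values, as a description. Mtor and Rptor were each other's nearest member, at 0.117, and Akt1 was the member farthest from Mtor, Rptor, Rictor and Pik3r1, at 0.466 to 0.794. Over all named genes tested, the nearest to Mtor were Prpf8 (0.0377), Yap1 (0.0492) and Sec24d (0.0533), and the nearest to Rptor were Peli1, Nup188 and Tonsl (0.0522 to 0.0566). The nearest to Akt1 was Oaf (0.0329), with 552, 588 and 801 in wild type 1 to 3, against 898, 581 and 563 in labelled knockout 1 to 3, which shows the same high values in wild type 3 and labelled knockout 1. The nearest to Pik3ca was Nedd4 (0.0373), a ubiquitin ligase, with 4393, 4704 and 5049 in wild type and 2582, 4083 and 3249 in labelled knockout. The nearest to Pik3cb were Reep3, Uso1 and Hspa9 (0.0473 to 0.0557), to Akt2 Nit1 (0.0336), to Pik3r1 Ssh2 (0.0573) and to Rictor Lrrc31 (0.0378).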

How the data were processed

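RNA-seq libraries were made from polyA RNA with the Illumina TruSeq kit, per the labels' protocols. TopHat2 2.1.0, HTSeq 0.6.0, DESeq2 and mm10 are listed, without order, in the submitters' processing notes; for annotation and strand setting, the sources used here give nothing. The unit deposited by the authors is a score, whole numbers that the authors scaled per library: recomputed median-ratio factors were 1.0054 to 1.0088 although totals differed, and 3, 5 and 1 of the whole numbers up to 30 were the value of no gene in, respectively, wild type 3 and labelled knockout libraries 1 and 3. They are called normalised counts; rounding hides the reads behind them, and no counting interval is given. Of 24452 symbols 27 had become dates, and no column was left unused.

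limma 3.58.1 (R 4.3.3) was fitted to log2(normalised count + 1) with an intensity trend, keeping genes that reached 10 in 3 or more libraries, with genotype as the only term (4 residual and 2.99 prior degrees of freedom). All p-values are two-sided and were adjusted by Benjamini-Hochberg over all genes tested, with a threshold of 0.05 for a call. On this scale the fold change of a low gene is understated. The 20 alternative settings run covered filters, pseudocounts, scaling, variance models, covariates and omitted libraries. Ratios within libraries were compared with exact permutation tests. The scripts were tested on simulated data. Members, 14 pathway lists and 8 marker lists were chosen with earlier results of these data known. Named genes were the members and, per pathway list, up to 4 called genes by p-value and the 2 uncalled genes with the highest mean; Fbxo32 and the markers named were added after their values were seen. Positions and exon lengths (96.6% of genes tested) came from GENCODE vM21 on GRCm38, and promoters from RefSeq. The segment score is the mean log2 value of 8 proximal genes minus that of the 3 ileal genes that passed the filter (Fgf15, Slc51a and Slc51b). Some genes of the lists are not reported here by name, although the counts include them.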

Additional observations from a re-analysis of the deposited data

How the results depend on the processing

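Counts of calls depended on the libraries and on the variance model, and the authors' scaling decided some signs. Pathway genes called were 19 with all libraries (14.6%, against 8.79% of all genes) and 10 without the filter on low values (7.52%, against 4.83%). They were 88 with sample quality weights (67.7%, against 62.1%) and 43 without wild type 3 and labelled knockout 1 (33.1%, against 25.9%). There were 37 with the segment score (28.5%, against 27.4%) and 3 with sex as a covariate (2.31%, against 3.13%). The number called ran from 0 to 41 when 1 library was left out. Members called were 4 with sample quality weights, 1 with the segment score and 0 in every other setting run. Same-numbered libraries deviated apart in pairs 1 and 3 (correlations -0.37 and -0.16) and together in pair 2 (0.30), so the numbers were not taken to pair the libraries. With the replicate block limma called 0 pathway genes and 64 of all genes (0.436%). At an unadjusted p under 0.05 there were 36 pathway genes, and the share of all genes was not computed. Log2 fold changes whose sign turned were those of Akt1 (-0.14), Mtor (-0.15) and Rptor (-0.0736) with library totals, which moved the median of all genes to -0.19, and of Akt1 (-0.0224) and Mtor (-0.0315) with upper-quartile factors. They were also those of Akt1 (-0.0499) with quality weights, Mtor (-0.10) and Rptor (-0.0036) with the segment score, Mtor (-0.071) with sex, and Akt1 (-0.000531) and Rictor (0.0179) without wild type 3 and labelled knockout 1. With 1 library left out the ranges were -0.17 to 0.20 for Akt1, -0.11 to 0.29 for Mtor, -0.50 to 0.23 for Pik3r1, -0.63 to 0.0655 for Rictor and -0.0121 to 0.27 for Rptor. Pik3ca, at -0.73 to -0.40, Pik3cb, at 0.30 to 0.55, and Akt2, at -0.17 to -0.04, kept their sign there, and the 3 ratios kept theirs in all settings run. The cause of these shifts was not tested. Fits without a library have fewer samples, and rounding hides the reads behind each value, which limits low genes most.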
